A study of Mus musculus with 6 samples.

Results

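The amount of H3K27 chromatin immunoprecipitation signal over genes was compared between 2 immortalized mouse kidney cell lines, mK4 and mK3. Both are labelled as lines from the E11.5 metanephros, the embryonic rudiment of the permanent kidney, of strain CD1. The 2 lines were compared through 1 library each, made with an antibody labelled H3K27 of Active Motif, out of 6 libraries in the series. No treatment, time course or genotype is labelled, and the 2 lines carry all of the contrast. The input library of each line, sequenced chromatin without pull-down, served as background, and the 2 libraries with an antibody labelled H3K4 were used only as a further readout. In earlier work these lines were described as resembling metanephric mesenchyme before induction (mK3) and at a later, induced stage (mK4). A line is a single culture lineage, the labels do not say how it was immortalized, and no RNA was measured, so its identity was not checked against expressed markers. All 21937 gene symbols entered the comparison, with the row of most reads kept where a symbol had several, and 15796 of them had a mean of at least 10 reads over the 2 H3K27 libraries after scaling to equal totals.

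Methylation of lysine 27 of histone H3 is written by the Polycomb repressive complex, whose catalytic subunit is Ezh2 or Ezh1, and the trimethylated form is spread over CpG-rich promoters and bodies of developmental genes that a cell keeps silent. In embryonic cells such genes encode mostly transcription factors and signalling proteins of other lineages. A gene can lose the mark without becoming active. The label gives the residue and not the degree of methylation that the antibody binds. Gene groups known to carry or to lack the mark were used to check the label. Of 29 neural homeobox factor genes, 20 in mK3 and 15 in mK4 lay at least 2-fold over their own input. This compares with 12.4% and 11.7% of all 15796 genes. None of 11 ribosomal protein and 10 housekeeping genes did in either line, but these groups are small for such shares. A further 70 of 81 ribosomal protein genes had too few reads to be compared. Other lists were mixed. Olfactory receptors lay over input at 55 of 142 in mK3 and 43 in mK4, and HoxA genes at 0 and 1 of 10. Another 960 of 1102 olfactory receptor genes had too few H3K27 reads to be compared. The 142 were thus kept by the same reads that were then set over input, which raises their share. The check thus does not settle the label.

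The H3K27 libraries held 593079 exon reads in mK3 and 481235 in mK4, with a median of 20 and 16 reads per gene row, and the inputs held 311409 and 386695. With 1 library a side there is no replicate error, so no p-value is given. The 95% intervals on folds are exact Clopper-Pearson intervals that cover counting error only. A difference between the lines cannot be told apart from a difference between 2 single libraries. In cultured bulk chromatin, less mark in every cell and a mark held by fewer cells cannot be told apart either. A gene was called when its H3K27 differed at least 2-fold, on log2 of scaled reads plus 5, which understates differences of genes with few reads.

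RefSeq promoters of 6 genes that the differences turn on are shown first, each from 250 bases before to 50 after the gene's most upstream listed start, in build GRCm38.p6 and 5′ to 3′. Sp8, Foxa1, Nkx2-3 and Lhx1 had less H3K27 in mK4, and Tspan2 and Parvb had more. Capitals mark each CG, since Polycomb complexes are known to be recruited to CG-rich sequence. The deposited files were made on mm9 and count exons, so at most the last 50 bases of each window fall within what was counted.
Sp8, chr12:118846079-118846378, plus strand: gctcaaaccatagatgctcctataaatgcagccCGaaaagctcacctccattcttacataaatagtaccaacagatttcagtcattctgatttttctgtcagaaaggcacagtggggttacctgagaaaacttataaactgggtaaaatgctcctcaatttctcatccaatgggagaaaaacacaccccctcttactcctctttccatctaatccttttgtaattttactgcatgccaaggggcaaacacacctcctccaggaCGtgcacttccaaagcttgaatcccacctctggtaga
Foxa1, chr12:57546062-57546361, minus strand: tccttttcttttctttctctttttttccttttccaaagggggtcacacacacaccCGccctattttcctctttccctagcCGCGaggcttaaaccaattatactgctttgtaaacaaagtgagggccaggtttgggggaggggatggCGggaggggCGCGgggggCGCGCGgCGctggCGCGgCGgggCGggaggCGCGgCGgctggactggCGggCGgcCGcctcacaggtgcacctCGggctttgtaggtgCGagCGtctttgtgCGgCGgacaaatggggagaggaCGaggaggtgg
Nkx2-3, chr19:43612075-43612374, plus strand: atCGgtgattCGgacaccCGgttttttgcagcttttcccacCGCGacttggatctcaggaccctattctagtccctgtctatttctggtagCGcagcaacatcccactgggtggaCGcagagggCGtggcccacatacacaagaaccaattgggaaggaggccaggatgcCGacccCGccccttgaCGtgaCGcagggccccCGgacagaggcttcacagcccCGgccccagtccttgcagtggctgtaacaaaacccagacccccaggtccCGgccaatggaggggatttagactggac
Lhx1, chr11:84525485-84525784, minus strand: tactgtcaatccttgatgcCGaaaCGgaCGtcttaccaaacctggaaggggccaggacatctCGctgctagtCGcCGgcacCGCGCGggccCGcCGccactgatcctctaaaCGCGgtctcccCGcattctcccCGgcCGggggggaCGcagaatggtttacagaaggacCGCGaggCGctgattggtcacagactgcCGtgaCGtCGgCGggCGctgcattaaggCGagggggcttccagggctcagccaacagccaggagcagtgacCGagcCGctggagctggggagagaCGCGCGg
Tspan2, chr3:102734520-102734819, plus strand: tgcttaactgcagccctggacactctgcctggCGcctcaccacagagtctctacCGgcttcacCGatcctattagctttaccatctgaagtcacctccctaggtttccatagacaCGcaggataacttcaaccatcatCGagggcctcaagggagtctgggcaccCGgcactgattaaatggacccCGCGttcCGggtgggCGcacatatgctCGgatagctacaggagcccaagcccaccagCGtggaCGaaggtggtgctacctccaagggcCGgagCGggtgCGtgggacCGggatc
Parvb, chr15:84231793-84232092, plus strand: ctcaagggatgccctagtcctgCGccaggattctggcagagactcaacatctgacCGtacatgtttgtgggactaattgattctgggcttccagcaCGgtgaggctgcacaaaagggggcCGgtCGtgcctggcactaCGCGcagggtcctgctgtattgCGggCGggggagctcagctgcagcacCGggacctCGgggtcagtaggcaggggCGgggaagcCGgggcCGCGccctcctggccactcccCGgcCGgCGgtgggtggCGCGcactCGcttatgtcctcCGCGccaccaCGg
The motif searched was CG, which reads the same on both strands. There were 2 in the Sp8 window, 26 in Foxa1, 15 in Nkx2-3, 31 in Lhx1, 17 in Tspan2 and 24 in Parvb. Over all 32851 windows of the table the median was 7, at least 1 CG was present in 94.6%, and 34.6% held 15 or more. Sp8 has 3 windows in the table, with 2 to 32 CG, so its count depends on which start is taken. Windows with 15 or more CG were present on both sides, and the Sp8 window shown lay below the median. No comparison of CG content between whole groups of genes is given, because only 77.5% of the genes compared, and 70.2% of the genes called lower, had a window in the table.

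Of 15796 genes, 717 (4.54%) had at least 2-fold more H3K27 in mK4 and 591 (3.74%) had at least 2-fold less. With edgeR's TMM factors in place of library totals the counts were 856 and 450, and with ratios centred on their median 861 and 441. When the line with more H3K27 also had to be at least 2-fold over its own input, 143 (0.905%) and 147 (0.931%) were left. The log2 ratio of mK4 to mK3 had a median of -0.07 and quartiles of -0.41 and 0.30. The inputs, scaled and counted the same way, differed at least as often, with 1234 genes (7.81%) higher in mK4 and 1014 (6.42%) lower, from fewer reads per library. The genes called higher were not spread evenly. Chromosome 3 held 307 of them (37.2% of its 825 genes), chromosome X 104 (20.6% of 504) and chromosome 7 93 (9.22% of 1009). Of the genes called lower, chromosome 14 held 80 (13.9% of 577) and no gene of chromosome 14 was called higher.

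Summed over whole chromosomes, H3K27 and input moved together. The share of H3K27 reads on chromosome 3 was 1.89-fold higher in mK4 (1.86 to 1.92) beside 1.84-fold in the inputs, and on chromosome 14 it was 0.641-fold (0.628 to 0.654) beside 0.644-fold. Chromosome 7 had the lowest H3K27 fold for its input, 1.44 against 1.54. Across the 20 chromosomes the H3K27 fold divided by the input fold lay between 0.934 and 1.03. The chromosome with the most extra H3K27 reads in mK4 was thus the one with the most extra input reads.

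**Figure D1:**
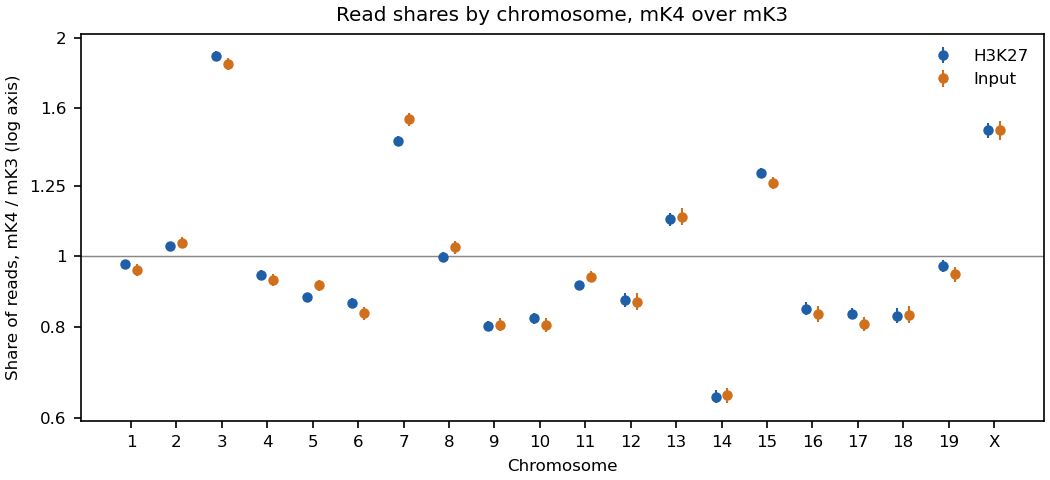
Share of each library's exon reads on each chromosome, mK4 divided by mK3 on a log axis, for H3K27 (blue) and input (orange), with 95% counting intervals as bars. The H3K27 point of each chromosome lies beside its input point, from 1.89 and 1.84 on chromosome 3 to 0.641 and 0.644 on chromosome 14.

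Within chromosomes the same held for many of the genes called higher. For each gene a local input ratio was taken from the summed input reads of 10 genes upstream and 10 downstream of it, not counting its own. It had a median log2 ratio of 1.10 around the genes called higher, -0.32 around those called lower and -0.12 around all genes. After this local input ratio was subtracted, 97 of 709 genes called higher and 216 of 583 called lower were still at least 2-fold apart. Over all genes with neighbours the counts then were 284 higher (1.81% of 15669) and 416 lower (2.65%). The excess of gains over losses in the plain comparison thus became an excess of losses, but not on every chromosome. Chromosomes 3 and 7, with more input in mK4, held 15 and 9 higher and 35 and 56 lower. Chromosome 14, with less, held 12 higher and 8 lower, but chromosome 5, also with less, held 18 and 27. The constant added before log2 shrinks a gene's own ratio more than a ratio of summed reads. Genes with raised local input are thereby pushed towards losses. Its part in the switch was not tested. Subtracting each gene's own input ratio instead, which rests on few reads, left 1169 higher (7.4%) and 1373 lower (8.69%). The part of DNA copy number in these differences was not tested.

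**Figure D2:**
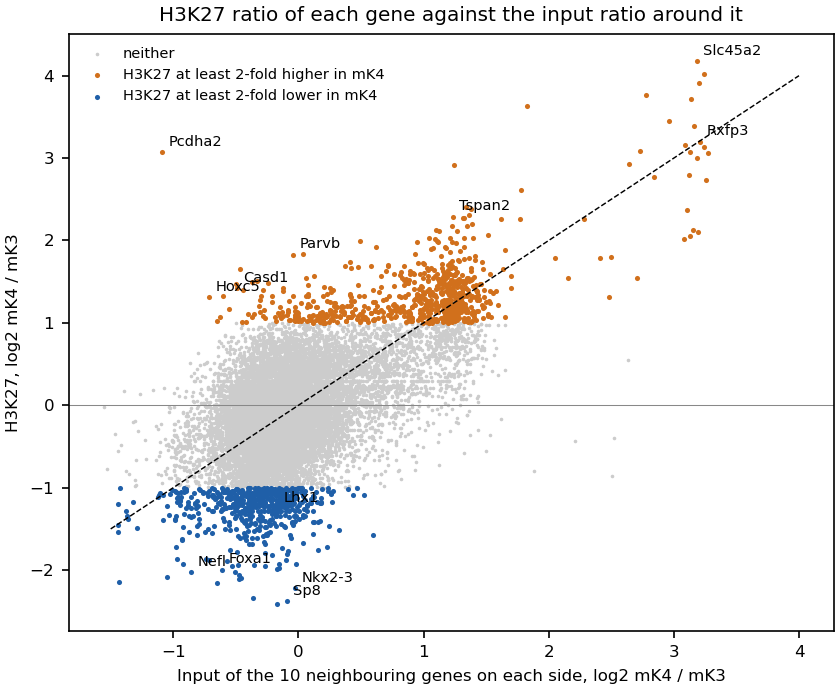
Log2 ratio of H3K27 (mK4 over mK3) of each gene against the log2 ratio of the input summed over its 10 neighbours on each side. The dashed line marks equal ratios, genes called higher are orange and genes called lower are blue. Rxfp3 lies on the line and Tspan2 above it, and Sp8 and Nkx2-3 lie low where the local input ratio is near 0.

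Genes with less H3K27 in mK4 were many and lay on most chromosomes. To be ranked, a gene needed at least 50 H3K27 reads in the 2 libraries together and at least 2-fold over input in mK3. Sex chromosomes, small RNAs and genes named only by clone were set aside. This left 80 genes on 18 chromosomes, with input higher in mK4 at 38 and lower at 42 (median log2 -0.03). The requirement over input favours genes with few mK3 input reads, so this even placing is partly set by it. Among all 591 genes called lower, input was higher in mK4 at 160 and lower at 431 (median log2 -0.40). In 75 of the 80 the mK4 signal was below 2-fold over input, so that these genes were past that level in mK3 and mostly not in mK4. These reads chose the genes, and their values are a description. Among the 5 genes with the largest ratios were 3 transcription factor genes, Sp8, Nkx2-3 and Foxa1. Sp8, a zinc finger factor of limb and forebrain outgrowth, had 119 H3K27 reads in mK3 and 15 in mK4 beside 28 and 23 input reads (read numbers are unscaled, mK3 first), 6.44-fold lower (3.75 to 11.9). Nkx2-3, a homeobox factor of gut and spleen mesenchyme, had 89 and 12 beside inputs of 19 and 12, 6.02-fold lower (3.28 to 12.1). Foxa1, which opens chromatin in endoderm, had 95 and 16 beside 17 and 13, 4.82-fold lower (2.82 to 8.77). In mK4 the signal of these 3 genes was at or under input, at 0.524, 0.804 and 0.989 times the input share. Their local input ratios were near 0 for Sp8 and Nkx2-3 and -0.61 for Foxa1, and with these subtracted the log2 ratios were -2.28, -2.19 and -1.38.

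The reads of the same 3 genes were also expressed per length, which leaves the folds between the lines unchanged. The H3K27 density was 44.8 RPKM (reads per exon kilobase, scaled to the exon reads of the library) for Sp8 in mK3 and 6.95 in mK4, 71 and 11.8 for Nkx2-3, and 50.2 and 10.4 for Foxa1. The density of Lhx1 was 67.3 and 26.4. Nkx2-3 thus had the highest H3K27 density of the 4 in mK3, and Lhx1 in mK4, with input not taken into account. The input density was 28.9 RPKM for Nkx2-3 in mK3 and 26.3 for Lhx1 in mK4. Lhx1, a LIM homeobox factor required for the first nephron vesicles, had 110 H3K27 reads in mK3 and 35 in mK4 while its input went from 8 to 28. Its mark was 7.22 times input in mK3 and equal to input in mK4, and its log2 ratio was -1.25, or -1.08 with local input subtracted. Counts in the mK3 input of this gene are small, so the level over input in mK3 is imprecise.

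Some signalling and adhesion genes were also among the 80 ranked losses. They are named by function, and the share of such genes among all losses was not taken. The lists of signalling families given below held calls in both directions. Dll4, a Notch ligand of endothelium, had 69 and 16 reads (3.50-fold lower, 2.01 to 6.46) with inputs of 13 and 16. Nog, the gene of the secreted BMP inhibitor Noggin, had 84 and 22 (3.10-fold lower, 1.92 to 5.20) with inputs of 14 and 36. Wnt7b, a ligand of the ureteric tree, had 99 and 33 (2.43-fold lower, 1.63 to 3.73) with inputs of 8 and 28. Cdh5, the endothelial cadherin, had 65 and 20 reads with inputs of 12 and 21. At Nog, Wnt7b and Cdh5 the input, as a share of its library, was higher in mK4 while the mark was lower, and at Dll4 it was nearly equal in both. Gfra2, a receptor subunit for neurturin, had 55 and 9 reads and lay on chromosome 14, where local input was lower too, and its log2 ratio of -1.87 became -0.89. The same shift was seen at Pcdh8, a protocadherin with 90 and 16 reads, from -1.92 to -0.999, and at Nefl, the light neurofilament chain with 117 and 20 reads, from -2.02 to -1.17. The input of Nefl itself was 20 in mK3 and 3 in mK4, so that its mark was 3.07 times input in mK3 and 5.36 times in mK4, and with its own input subtracted it was not lower.

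The remaining genes of the 15 ranked losses were of mixed function. Chst5, a carbohydrate sulfotransferase, had the largest of them, with 63 and 6 reads (8.52-fold lower, 3.70 to 24.1). Cacna1g, a T-type calcium channel, had 137 and 29 reads with inputs of 32 and 39. Auts2, a neurodevelopmental gene, had 81 and 19 with inputs of 16 and 6, and stayed 2.54 times over input in mK4. Slc30a8, the zinc transporter of insulin granules, had 49 and 10. Mapk15, an atypical MAP kinase, had 67 and 11, and Tc2n had 55 and 8. The membrane protein genes Tmem151b (124 and 23) and Tmem132e (58 and 9) were 4.37-fold and 5.23-fold lower. Of the 15 ranked losses, Gfra2 and Pcdh8, the latter by little, were less than 2-fold lower once local input was subtracted.

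**Figure D3:**
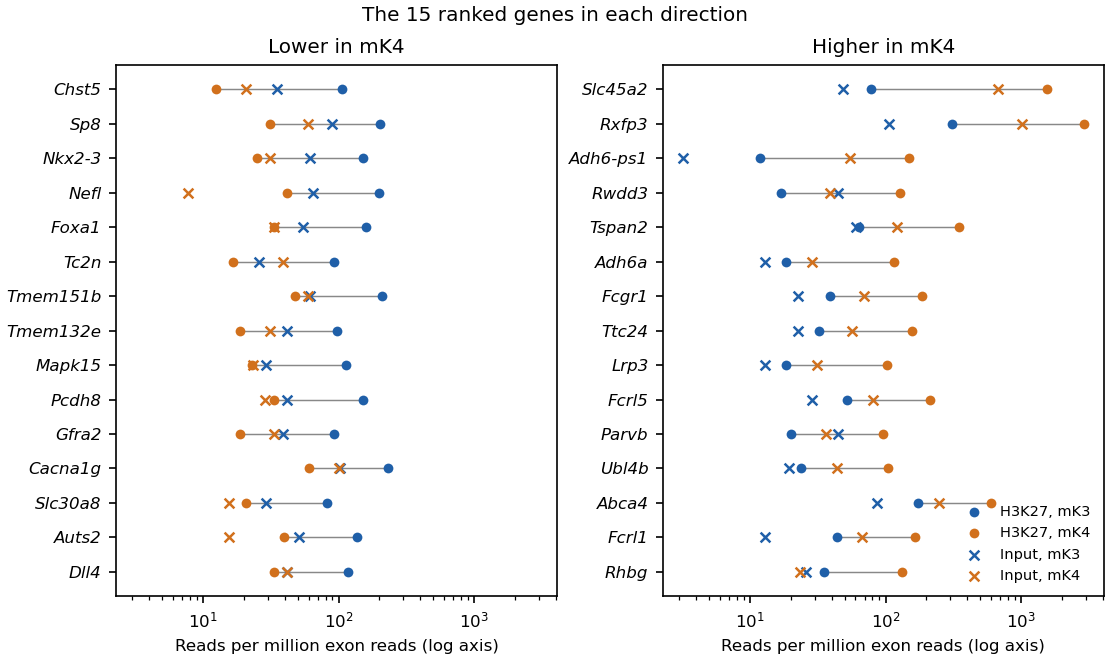
Exon reads scaled to a common library total (RPM) on a log axis for the 15 ranked genes in each direction, H3K27 as dots and input as crosses, mK3 in blue and mK4 in orange. On the left the mK3 dot of each gene lies right of both input crosses, and on the right the input crosses of most genes move with the dots, as at Rxfp3, but not at Parvb, Rhbg and Rwdd3.

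Genes with more H3K27 in mK4 were ranked in the same way and numbered 73, of which 36 lay on chromosome 3. The 2 largest ratios, Slc45a2 (46 and 753 reads), a melanosome transporter, and Rxfp3 (182 and 1394), the relaxin-3 receptor, lay on chromosome 15 where the local input was 3.18 and 3.21 higher on the log2 scale. With it subtracted Rxfp3 stood at -0.01 and Slc45a2 at 0.995. Tspan2, a tetraspanin of oligodendrocytes on chromosome 3, had 38 and 168 reads (5.45-fold higher, 3.81 to 7.97) with inputs of 19 and 47. Its mark was 1.05 times input in mK3 and 2.87 times in mK4, and its log2 ratio of 2.29 became 1.05 with local input subtracted. Among the other chromosome 3 genes, Adh6-ps1 kept 1.67, Fcgr1, the high-affinity IgG receptor, 0.99, and Abca4, a retinal lipid transporter with 103 and 290 reads, 0.27. Adh6-ps1 and Adh6a belong to a family of similar genes, and how reads of near-identical copies were placed is not given in the sources used here.

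Some gains stood apart from their own input or from that of their surroundings. Parvb, which encodes the focal adhesion protein beta-parvin on chromosome 15, had 12 and 46 H3K27 reads (4.72-fold higher, 2.46 to 9.80) beside equal input reads of 14 and 14, and a local input ratio of -0.04. Its mark was 0.450 times input in mK3 and 2.64 times in mK4. Rwdd3 had 10 and 61 reads with inputs of 14 and 15, and Rhbg, an ammonium transporter of the collecting duct, had 21 and 64 with inputs of 8 and 9. Both lie on chromosome 3, and with local input subtracted their log2 ratios were 0.997 and 0.61. Lrp3, on chromosome 7, had 11 and 49 reads and kept 1.51. Casd1, a sialic acid acetyltransferase gene chosen after its values were seen, had 26 and 64 reads while its input went from 24 to 9.

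Of the 80 ranked losses and 73 ranked gains, 31 losses on 14 chromosomes and 20 gains on 12 chromosomes were at least 2-fold apart both before and after subtraction of local input. In the 31 losses the input was higher in mK4 at 15, and in the 20 gains at 6. These input counts follow in part from the requirement over own input, which favours few input reads in the line with more H3K27. Just inside the 2-fold limit lay Tnfrsf21 (60 and 22 reads) and Ppyr1 (48 and 17) among losses and Tcfap2c (34 and 60) and Gpr35 (36 and 64) among gains. Just outside lay Sox11 (168 and 66) and Kctd8 (40 and 14), and Aldh1a3 and Pla2g4a (19 and 35 each). The members on either side of the limit thus differed little.

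Transcription factor families were read against the 4.54% of all genes called higher and 3.74% called lower. Of 12 Nkx factors compared, 10 lay below 0, 2 were called lower (Nkx2-3 and Nkx2-6) and none higher, with a median log2 ratio of -0.58 against -0.07 over all genes. Nkx factors over input numbered 10 in mK3 and 5 in mK4. Their input median was -0.17, and with local input subtracted the H3K27 median was -0.19 with 2 of 12 at least 2-fold lower. Of 9 Pax factors, Pax1, Pax9 and Pax2 were called lower, with 46 and 13, 51 and 15, and 33 and 9 reads, and none higher. With local input subtracted their log2 ratios were -1.02, -0.64 and -1.14. Pax2 is a regulator of nephron progenitors and their epithelial derivatives, and its inputs were 10 and 8. Of 41 forkhead factors 3 were called lower, among them Foxa1 and Foxe3, and 1 higher (Foxa3, with 13 and 28 reads), and with local input subtracted 5 were at least 2-fold lower and none higher. Foxa3 had input reads of 12 and 2.

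Lists of factors of other lineages held calls in both directions. Of 21 endoderm and gut factors 4 were called lower (Foxa1, Nkx2-3, Pdx1 and Onecut1) and 2 higher (Foxa3 and Cdx4), with a median of -0.38 beside an input median of -0.50, and of 0.12 with own input subtracted. Pdx1, the pancreas factor, had 55 and 17 reads with inputs of 6 and 11. Of 16 neurogenic basic helix-loop-helix factors Neurod1 was called lower (49 and 15 reads) and Neurog2 higher (74 and 127), and Neurog2 lies on chromosome 3, where local input brought its log2 ratio from 1.03 to -0.17. Of 15 T-box factors Tbx1 and Tbx5 were called lower, with 56 and 19 and 42 and 10 reads. Of 24 Sp and Klf factors Sp8 and Sp5 were called lower (Sp5 with 38 and 11 reads) and Klf8, on chromosome X, higher. Of 12 LIM homeobox factors Lhx1 was called lower, and of 9 Dlx and Msx factors Msx1 was called higher with 9 and 22 reads and inputs of 17 and 1. No gene of the Eya and sine oculis-type homeobox (10), Sox (17), GATA (6), Iroquois (4) or neural homeobox (29) lists was called in either direction.

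The Hox genes were taken cluster by cluster. In the HoxC cluster on chromosome 15 all 9 genes lay above 0, with a median log2 ratio of 0.36 and a range of 0.08 to 1.31, and 1 gene, Hoxc5, was called. Hoxc5 had 21 and 49 H3K27 reads (2.88-fold higher, 1.69 to 5.05) while its input went from 24 to 4. The inputs of the 9 genes were lower in mK4 with a median of -0.81, and their H3K4 was lower with a median of -1.25. At Hoxc8 the H3K27 reads were 38 and 43, the H3K4 reads 83 and 10 and the input reads 49 and 10. At Hoxc10 they were 19 and 24, 81 and 19, and 17 and 12. No HoxC gene was at least 2-fold over input in mK3 and 5 of 9 were in mK4. With local input subtracted the median was 1.15 and 8 of 9 genes were at least 2-fold higher, but the neighbours of a HoxC gene include other HoxC genes, so this local value is not independent of the cluster. With each gene's own input subtracted the HoxC median was 1.18. With the input of the whole of chromosome 15 subtracted instead, it was 0.0227, but that input was 1.26-fold higher in mK4, unlike the input at HoxC. The HoxC median thus stayed above 0 while its size moved with the input taken as background. The HoxA cluster went the other way, with 4 of 10 genes called lower, among them Hoxa7 and Hoxa10, and a median of -0.55, beside an input median of -0.61. With local or own input subtracted the HoxA median was 0.07 or 0.04, with no gene 2-fold lower after local subtraction. HoxA genes are likewise neighbours of each other, and with the input of their whole chromosome subtracted the median was -0.29. Hoxa10 (223 and 87 H3K27 reads) had 322 and 175 input reads. No gene of HoxB or HoxD was called, with medians of -0.07 and -0.15.

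**Figure D4:**
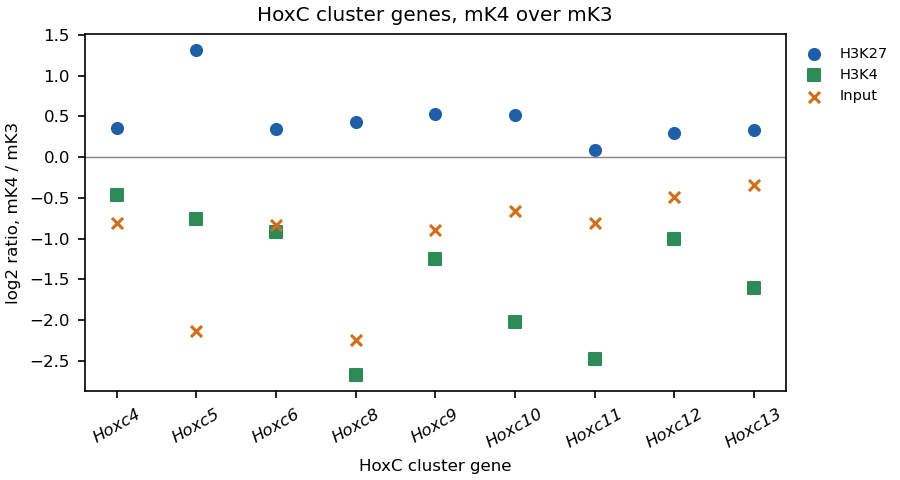
Log2 ratio of mK4 to mK3 at the 9 HoxC genes for H3K27 (dots), H3K4 (squares) and input (crosses), 1 library a side. The 9 H3K27 values lie above 0, from 0.08 at Hoxc11 to 1.31 at Hoxc5, and the H3K4 and input values of the same genes lie below 0.

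Kidney gene lists were read against the same shares of all genes. Of 13 nephron progenitor genes compared, Pax2 was called lower and none higher, and the median was -0.45 beside an input median of -0.01 and -0.20 after local input was subtracted. Six2, the self-renewal factor of progenitors, had 49 and 26 reads, Sall1 44 and 22 and Tmem100 53 and 26, each under 2-fold. Of 20 genes switched on when nephrons begin to form, Lhx1 and Sim1 (139 and 44 reads) were called lower and Cdh6 higher (31 and 222 reads), the last beside 9 and 259 input reads. Of 18 renal stroma genes Ecm1 was called, higher, with 12 and 24 reads and inputs of 12 and 43. No proximal tubule (18), loop of Henle and distal tubule (15) or podocyte gene (15) was called, and of 16 ureteric bud and collecting duct genes Wnt7b was called. Of 15 mesenchymal genes Snai1, a repressor of epithelial genes, was called higher with 7 and 17 reads.

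Signalling families had calls in both directions. Of 24 Wnt receptors and secreted modulators 1 was called, the agonist gene Rspo3, lower with 46 and 15 reads and inputs of 22 and 4. Of 18 Wnt ligands Wnt7b and Wnt5a were called lower and Wnt2b higher. Wnt5a, a ligand of mesenchyme outgrowth on chromosome 14, had 57 and 8 reads (5.78-fold lower, 2.74 to 14.03) with inputs of 31 and 26, and was not over input in either line. Wnt2b lies on chromosome 3 and had 52 and 98 reads with inputs of 36 and 103. Of 21 Notch pathway genes Dll4 was called lower and Hes7 and Notch2 higher, and Notch2 (49 and 111) is on chromosome 3 with inputs of 49 and 168. Of 20 BMP ligands and antagonists Nog was called lower and Chrdl1, on chromosome X, higher with 52 and 169 reads and inputs of 26 and 80. Of 17 FGF ligands Fgf9, on chromosome 14, was called lower with 141 and 54 reads and Fgf16, on chromosome X, higher with 19 and 47. With local input subtracted Fgf9 stood at -0.01, Fgf16 at 0.17, Notch2 at -0.19 and Wnt2b at -0.14, whereas Dll4 (-1.68), Wnt5a (-1.52), Nog (-1.41) and Wnt7b (-1.10) stayed more than 2-fold lower.

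Calls among genes of epithelia, vessels, blood and muscle showed no common direction. Of 30 epithelial junction genes 2 were called lower, among them Tjp3 (45 and 16 reads), and 1 was called higher, Ocln, the tight junction protein occludin (33 and 62, inputs 11 and 34), and 9 of the 30 were over input in mK3 and 4 in mK4. Of 50 keratins 3 were called lower (Krt14, Krt78 and Krt86) and Krt35 higher, and 16 of the 50 were over input in mK3 and 23 in mK4. Of 16 endothelial genes Cdh5 was called lower and Emcn, on chromosome 3, higher. Below 0 lay 13 of these 16 and above it 3, with a median of -0.34 beside an input median of 0.09. With local input subtracted the endothelial median was -0.10. No blood and immune (16) or skeletal muscle and cardiac gene (17) was called. Of 18 tetraspanins Tspan2 was called higher, and Tspan3 (18 and 4 reads) and Tspan12 (51 and 17) lower. Of 41 collagens 2 were called lower (Col7a1 and Col18a1) and 4 higher (Col8a1, Col9a3, Col11a2 and Col24a1), and Col8a1 had 38 and 96 reads beside inputs of 33 and 40. Of 76 potassium channel genes 3 were called lower (Kcnh8, Kcnk9 and Kcnv1) and 2 higher (Kcnc4 and Kcnn3), both on chromosome 3. Channels over input numbered 32 in mK3 and 19 in mK4. Of 18 Polycomb and H3K27 enzyme genes the demethylase gene Kdm6a, on chromosome X, was called higher, with 24 and 47 reads. None of 11 ribosomal protein genes, 4 cyclin-dependent kinase inhibitor genes or 7 defensins was called, and of 10 housekeeping genes the actin gene Actb was called higher (29 and 54 reads, inputs 28 and 58), at -0.22 with local input subtracted.

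**Figure D5:**
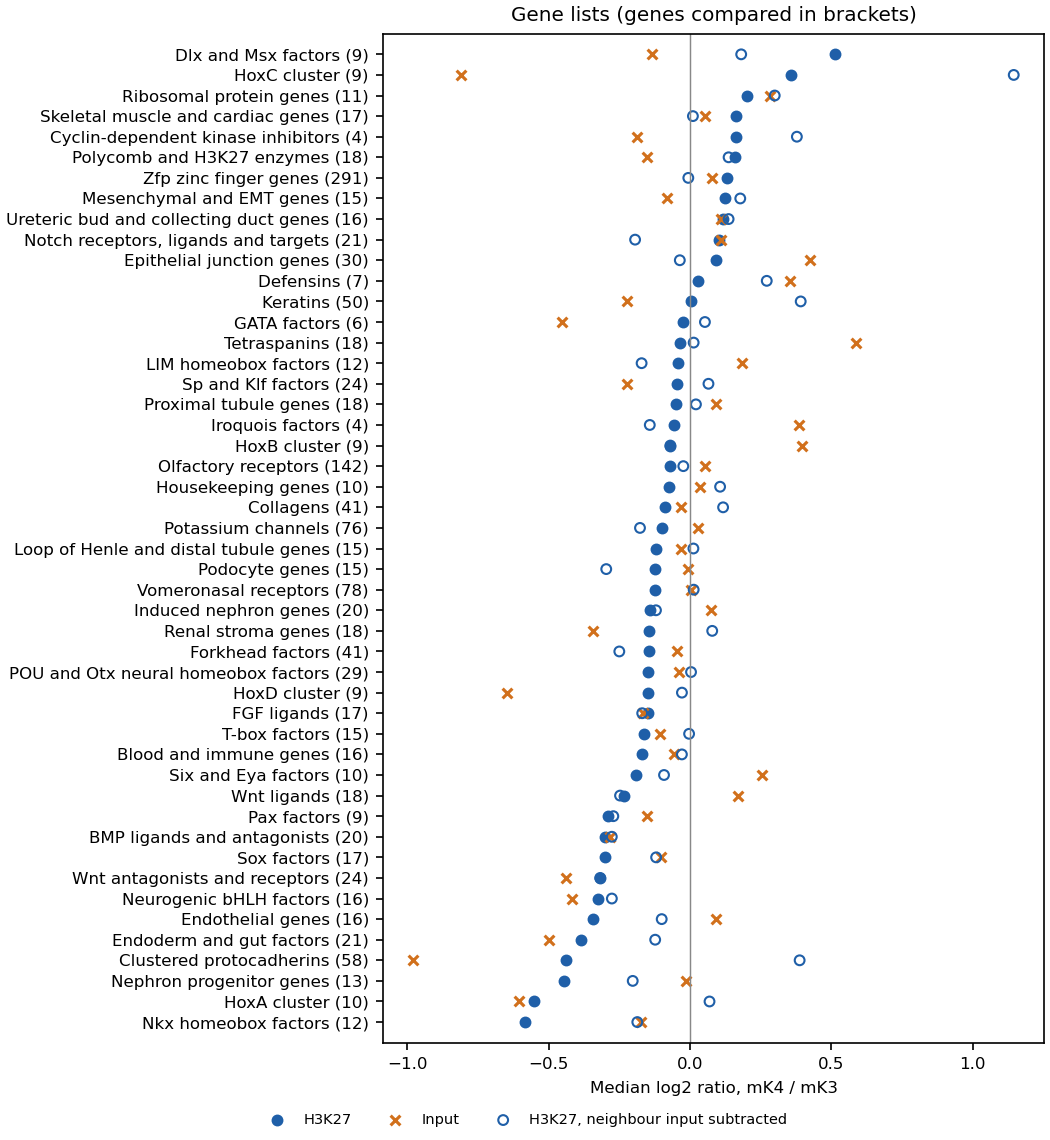
Median log2 ratio of mK4 to mK3 over the compared genes of each list, for H3K27 (filled dots), input (crosses) and H3K27 with local input subtracted (open circles). Nkx factors lie lowest in H3K27 at -0.58, and for the HoxC cluster input and H3K27 lie on opposite sides of 0.

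Multigene families were read with care, since their copies can share reads. Of 142 olfactory receptor genes compared (960 of 1102 had too few reads) 2 were called higher and 4 lower, and 3 and 6 with local input subtracted. Of 78 vomeronasal receptor genes none was called higher and 8 lower, and with local input subtracted 4 were at least 2-fold higher and 3 lower. Of 291 Zfp zinc finger genes 13 were called higher and 6 lower, with a median of 0.13, or -0.01 with local input subtracted. The 58 clustered protocadherin genes on chromosome 18 had a median of -0.44 beside an input median of -0.98, or 0.39 with local input subtracted. They are neighbours of each other, so this local value is not independent of the cluster. Over input lay 4 in mK3 and 22 in mK4. Part of these genes, among them the Pcdha genes, share 3′ exons and therefore reads. Within that cluster Pcdha2 had 1 H3K27 read in mK3 and 40 in mK4 (log2 ratio 3.07), while the 13 other numbered or C-type Pcdha genes had 56 to 92 in mK3 and 29 to 42 in mK4. In the other 4 libraries Pcdha2 lay inside, or at most 2 reads below, the range of those genes. The single mK3 value of Pcdha2 therefore stands apart from genes that share its exons, and no direction is read from it.

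The H3K4 libraries, which took no part in choosing the genes, gave a further view. Over all genes, 5.2% had at least 2-fold more H3K4 in mK4 and 3.47% at least 2-fold less. Among the 717 genes with higher H3K27, H3K4 was at least 2-fold higher at 309 (43.1%) and input at 336. Among the 591 with lower H3K27, H3K4 was at least 2-fold lower at 61 (10.3%) and input at 99. H3K4 thus differed in the same direction as H3K27 more often than in the opposite one. Among the 591 genes with lower H3K27 it was at least 2-fold higher at 11, and among the 717 with higher H3K27 at least 2-fold lower at 4. The 11 included Pax2, whose H3K4 reads were 4 in mK3 and 26 in mK4, Nog with 28 and 149, and Pdgfb, a growth factor gene with 85 and 22 H3K27 reads and 39 and 119 H3K4 reads. The 4 were Snai1 (40 and 20 H3K4 reads), Msx1, a homeobox gene (33 and 5), Nsg1 (12 and 2) and Tgfb1i1 (58 and 31). Pdgfb, Nsg1 and Tgfb1i1 were chosen after their values were seen. With the pseudocount, Nog and Msx1 were at least 2-fold over input in the line with more H3K27. Pax2, Pdgfb, Snai1, Nsg1 and Tgfb1i1 were not. Some of these genes had few H3K27 reads, such as Snai1 with 7 and 17, Nsg1 with 7 and 21 and Msx1 with 9 and 22. For the 31 losses that held after subtraction of local input, H3K4 with the same subtraction had a median of 0.12 and was at least 2-fold higher at 2. For the 20 gains the median was 0.02, with none at least 2-fold lower. Over all 15669 genes with neighbours it was 0.02, with 413 at least 2-fold higher and 346 at least 2-fold lower. An opposite H3K4 difference of 2-fold was absent at most of the 31 losses and 20 gains, as it was at most of the 15669. With sets this small, no more is read from these counts.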

How the data were processed

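The 6 libraries of 2 cell lines were read from the deposited tables of 22088 gene rows. Per the file headers, the authors gave a whole read count per gene, an exon length and an RPKM, which equals the deposited count per exon kilobase, scaled to the counted reads of the same file. The submitters' processing notes name the build mm9. Aligner, counter, strand and duplicate handling were not given in the sources used here. Depth here is the sum of exon reads, not of sequenced reads.

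For each of 137 symbols with several rows the row with most H3K27 reads was kept. Counts were scaled to the mean of the 2 H3K27 totals, and log2 ratios used a pseudocount of 5. Genes with a mean scaled count under 10 (6141) were not compared. No count model or test was used, since each group has 1 library; edgeR 4.0.16 gave TMM factors as an alternative only. The calls and intervals were tested on simulated data. Local input used the gene order of a RefSeq table of GRCm38.p6, matched for 19323 genes by symbol and 2302 by synonym, with 312 unmatched. The deposited symbols include 25 turned into dates, which were not named.

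Named genes were 15 genes ranked by ratio on either side (at least 50 reads in both libraries together, 2-fold over input in the line with more), 5 marker genes, up to 4 members of each of 48 lists and all called members, and genes beside the limit. Some genes that the rule names are not reported here. The members, lists and rules were chosen with earlier results of these data known.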

Additional observations from a re-analysis of the deposited data

How the results depend on the processing

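The counts of 717 genes higher and 591 lower rest on choices about depth and background. They were 465 and 259 with a minimum of 25 reads, 458 and 283 with a pseudocount of 10, and 1060 and 1087 with a pseudocount of 1. With TMM factors they were 856 and 450, and with ratios centred on their median 861 and 441, so that the share of higher calls depends on the scaling. With chromosome input subtracted they were 349 and 600, with local input 284 and 416, with own input 1169 and 1373, and without chromosomes 3, 7, 14, 15 and X 172 and 454. Restricted to genes over input in the line with more H3K27, 143 and 147 remained. With no minimum they were 848 and 831, and the longest row per symbol changed neither count.

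Of the named genes that were called, 18 changed sign when their own input was subtracted, with log2 ratios of Rspo3 0.92, Zfp454 -0.72, Ocln -0.0346, Nefl 0.0853, Cdh6 -1.22, Krt78 1.17, Tbx1 0.31, Pcdha10 0.24, Col24a1 -0.0586, Ecm1 -0.33, Fcrl1 -0.0822, Kcnc4 -0.0265, Notch2 -0.0286, Wnt2b -0.00735, Vmn2r18 0.10, Zfp12 -0.28, Hoxa10 0.16 and Cdx4 -0.82. With local input 12 changed sign, namely Rxfp3 -0.0107, Ecm1 -0.0380, Kcnc4 -0.28, Neurog2 -0.17, Notch2 -0.19, Olfr1402 -0.19, Wnt2b -0.14, Actb -0.22, Vmn2r18 0.42, Zfp12 -0.0302, Zfp60 -0.0133 and Klf8 -0.15. No named gene that was called changed sign under the other pseudocounts, scalings, chromosome input or row choice. Own input has few reads per gene, which limits that subtraction. No paired analysis was possible because each group has 1 library. Depth limits genes under 10 reads, among them most ribosomal protein and olfactory receptor genes, whose ratios are imprecise.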
